A study of Homo sapiens with 18 samples.

Results

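The genes described here are the tissue inhibitors of metalloproteinases TIMP1, TIMP2, TIMP3 and TIMP4 and the matrix metalloproteinases MMP1, MMP2, MMP3, MMP14, MMP15 and MMP24, which make 10 of the 57773 genes listed in the deposited expression table. They were taken by matching the Ensembl identifiers of the table to these symbols, and the set was put together with expression results of the same libraries in view, so their own differences are given as a description, without p-values. Polyadenylated RNA was sequenced from RPE1 cells, a human retinal pigment epithelial line made immortal, in 3 tetraploid clones (4N-1, 4N-2 and 4N-3) and 3 diploid clones (2N-1, 2N-2 and 2N-3), with 3 biological replicate libraries (A, B and C) of each. All 6 clones came from cells exposed for 72 h to ZM447439 at 2.5 uM, which blocks the Aurora kinases so that mitosis ends with no division, after which the survivors grew for some weeks and were cloned from single cells. Each diploid clone was picked from the same plates as its tetraploid partner, which gives pair 1 (4N-1 and 2N-1), pair 2 (4N-2 and 2N-2) and pair 3 (4N-3 and 2N-3). Both clones of pair 2 also carried a stain with the DNA dye Hoechst 33342 before they were cloned again. Each line is 1 clone, so that a difference within a pair is a difference between 2 clones and its replicates measure the spread between libraries of a clone. No clone went without the drug.

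Matrix metalloproteinases are zinc-dependent proteases that cut collagens, fibronectin, growth factor carriers and one another, and they are made as inactive precursors. MMP1 and MMP3 are secreted, a collagenase and a stromelysin. MMP2 is a secreted gelatinase whose precursor is activated at the cell surface by MMP14, a membrane-type protease, in a complex that needs TIMP2, while an excess of TIMP2 blocks the same step. MMP15 and MMP24 are further membrane-type members. The TIMPs bind the active site of these proteases. TIMP3 differs from the others in that it is held in the matrix and also inhibits some ADAM and ADAMTS proteases. In the eye it is known as a component of Bruch's membrane, which the retinal pigment epithelium lines.

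Promoter sequences are shown for the 2 genes whose transcripts carried the widest differences among those with a printable upstream window, TIMP3 and MMP24, and for MMP14, which was abundant in every library. They come from RefSeq (GRCh38.p14), which held 6 of the 10 genes, and each line runs 5′ to 3′ on the plus strand from 250 bases before the RefSeq start up to the first GENCODE v29 exon. Capitals mark CG dinucleotides, the sites at which cytosine can be methylated.
TIMP3, chr22:32801455-32801700: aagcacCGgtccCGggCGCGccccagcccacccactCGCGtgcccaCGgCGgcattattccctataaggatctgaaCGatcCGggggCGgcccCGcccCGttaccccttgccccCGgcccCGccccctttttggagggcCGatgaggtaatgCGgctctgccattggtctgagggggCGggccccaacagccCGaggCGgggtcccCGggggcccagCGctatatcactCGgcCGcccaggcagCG
MMP24, chr20:35226440-35226653: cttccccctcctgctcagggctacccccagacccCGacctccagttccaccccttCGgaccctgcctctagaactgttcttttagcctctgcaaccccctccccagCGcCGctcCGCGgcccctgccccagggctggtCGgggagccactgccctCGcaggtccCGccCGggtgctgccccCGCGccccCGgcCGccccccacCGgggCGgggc
MMP14, chr14:22836335-22836556: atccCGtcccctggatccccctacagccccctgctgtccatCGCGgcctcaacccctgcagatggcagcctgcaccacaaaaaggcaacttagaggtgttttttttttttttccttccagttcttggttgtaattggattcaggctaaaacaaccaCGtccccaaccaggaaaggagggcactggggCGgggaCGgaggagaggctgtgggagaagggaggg
The 250 bases before the start held 26 CG in TIMP3, 25 in MMP24 and 7 in MMP14, and the median over the 35116 promoters of the table was 11. At least as many were present in 19.6% of all promoters for TIMP3, in 21.6% for MMP24 and in 58.9% for MMP14. The motif GGGCGG or its complement CCGCCC occurred 5 times in TIMP3, 3 times in MMP24 and 1 time in MMP14, and 42.6% of all promoters held at least 1. The letters TGANTCA, searched on both strands and allowing any base at N, were in none of the 6 windows and in 6.57% of all promoters, and TATAAA, searched on the strand of the gene, was in none of the 6 and in 6.80%. These are counts of letters in a fixed window, and no methylation or factor binding was measured here.

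Levels are in reads per M, the whole reads recovered from the deposited values over the library scale those values imply (M, mega), as a mean ± SD over the 3 libraries of a clone. Libraries held 37.0 to 54.1 M reads in genes. Differences are 4N minus 2N on log2(reads per M + 0.1), with the standard error (SE) of a limma fit over all 18 libraries. Of the 10 genes, 8 reached the minimum of 0.25 reads per M in 3 libraries, and MMP1 and MMP3 did not. The term called is used for a difference of 2-fold or more whose adjusted p was below 0.05. On a principal component analysis the 3 libraries of 4N-2 stood apart (92.7 to 97.4 on the first component, against -31.0 to -4.16 for the other 15), and library A of 2N-3 stood apart on the second (75.8, against at most 17.4). Of 11 markers of retinal pigment epithelium, MITF, OTX2, BEST1, KRT8 and KRT18 were at 1 read per M or more in every clone, while RPE65, RLBP1, TYR, PMEL, TTR and SERPINF1 were below 1 in every clone.

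Among the 8 genes tested, 2 were called in pair 1, with TIMP4 lower and MMP24 higher in 4N-1. Over all 22821 genes tested, 4.27% were called in that pair, 1.98% higher and 2.29% lower. The 3 genes called in pair 2 were TIMP3 and MMP24, higher in 4N-2, and MMP15, lower, beside 12.9% of all genes (6.17% higher and 6.78% lower). Pair 3 had 2, TIMP3 and TIMP4, both lower in 4N-3, beside 2.37% of all genes (1.00% higher and 1.37% lower). Since the genes were chosen with these contrasts known, nothing is read from the counts. Across the 3 pairs, MMP24 and TIMP2 had a higher mean in the tetraploid clone every time, MMP15 had a lower mean every time, and the other 5 genes changed sign between pairs, which for TIMP1 rests on library A of 2N-3. Without that library and library C of 4N-3, TIMP2 also turned in pair 3 (log2 difference -0.03). With the 6 clone means fitted as 3 against 3 and the pair as a block, limma called 0 of 22821 genes. The same fit on the log values of voom, without its weights, also called 0. With library C of 2N-3 left out, limma called 2. An unadjusted p below 0.05 was reached by 1038 genes (4.55%). The mean of the 3 pair differences was 1.47 ± 0.89 for MMP24, 0.29 ± 0.19 for TIMP2 and -0.66 ± 0.62 for MMP15 on the log2 scale (SD, n = 3 pairs).

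**Figure D1:**
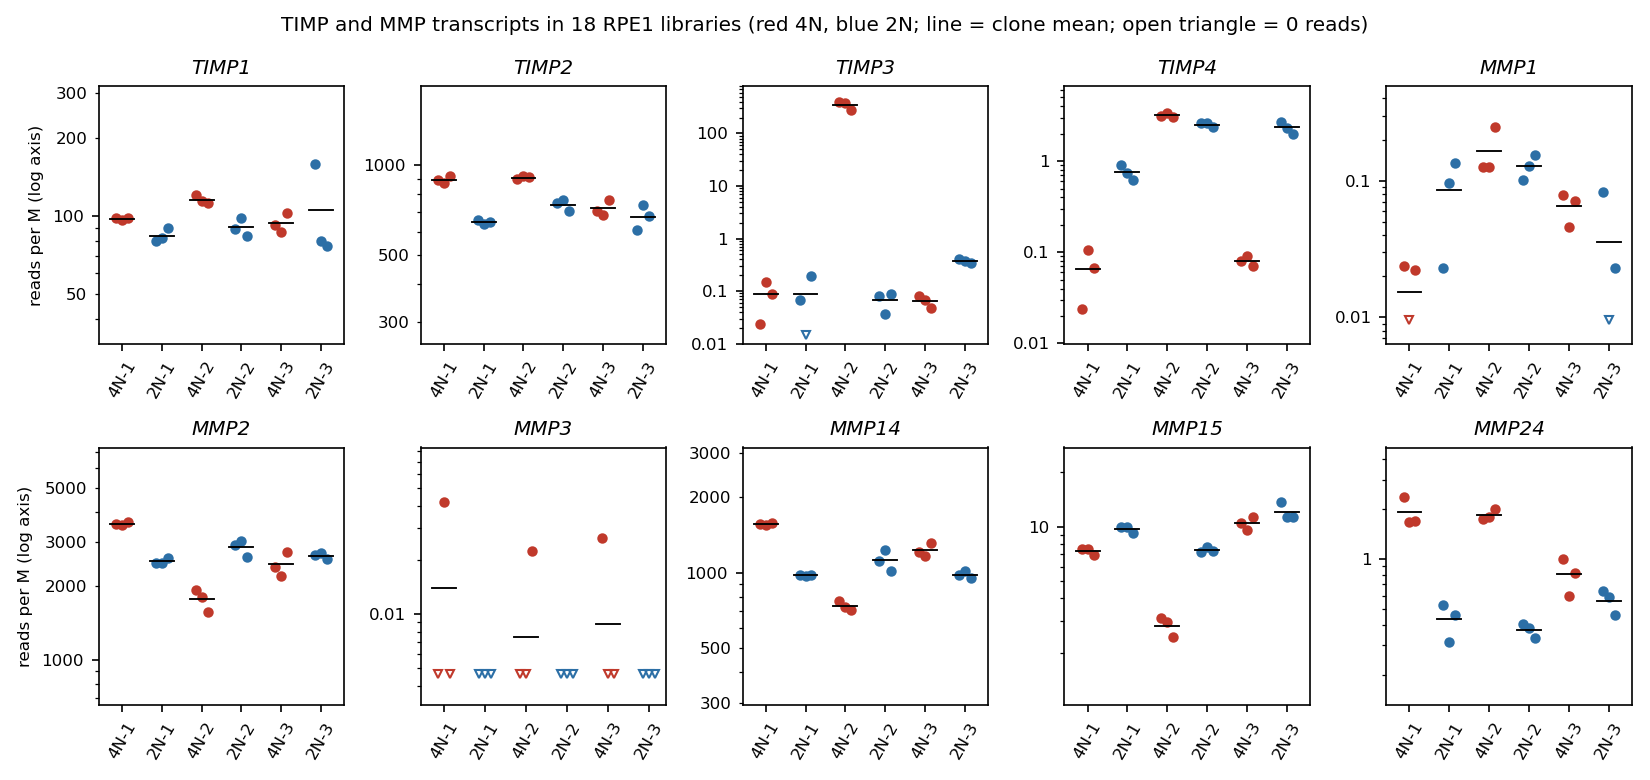
Reads per M (log axis, a scale of its own in each panel) of the 10 genes in 18 libraries, with 4N clones in red and 2N clones in blue, clone means as lines and libraries with 0 reads as open triangles at the lower edge. TIMP3 sits at 281 to 401 reads per M in the libraries of 4N-2 and below 1 in the other 15, while TIMP4 is lowest in 4N-1 and 4N-3.

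TIMP3 (chr22:32801701-32863043, plus strand, GRCh38 in GENCODE v29) was close to silent in 5 clones and abundant in 4N-2. Libraries A, B and C held 15826, 15182 and 12512 TIMP3 reads in 4N-2, against 4, 2 and 4 reads in 2N-2. Per M these were 401, 381 and 281 reads in 4N-2, against 0.0806, 0.0365 and 0.0883 in 2N-2. Every library of 4N-2 was thus far above every other library of the study, and the 15 other libraries together held 86 TIMP3 reads. The ratio of the summed reads, scaled to depth, was 5259 for 4N-2 over 2N-2, with a 95% exact interval of 2860 to 10968 that covers counting error only. On the log2 scale the difference was 11.04 (SE 0.31), a value that depends on the scale and the pseudocount, with 2N-2 near 0. It was 3.63 as log2(RPKM + 0.5), and called there too.

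In the other pairs TIMP3 rested on few reads. Pair 3 had 3, 3 and 2 reads in 4N-3 against 15, 16 and 15 reads in 2N-3, and every library of 4N-3 was below every library of 2N-3. Scaled to depth, 2N-3 held 5.81 times the reads of 4N-3 (95% exact interval 2.72 to 14.3), and the log2 difference was -1.53 (SE 0.31). That call ended with a pseudocount of 0.5 reads per M, where the difference was -0.63, and on the deposited RPKM scale, where it was -0.01. In pair 1 the libraries overlapped, with 1, 7 and 4 reads in 4N-1 against 3, 0 and 7 reads in 2N-1.

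TIMP3 lies inside the span of SYN3, which encodes a synaptic vesicle protein and is read from the opposite strand. SYN3 had 120 reads in the 3 libraries of 4N-2 against 12 in 2N-2, and it was called (log2 difference 2.50, adjusted p = 1.87e-06, limma over all tested genes). The library kit keeps the strand, but its use in counting is not given in the sources used here, so reads of TIMP3 and SYN3 cannot be told apart for certain. Of the 5 nearest tested genes on each side of TIMP3, 3 were called higher in 4N-2 (SYN3, ISX-AS1 and LINC01399) and none lower. SYN3 and ISX-AS1 reached the minimum level only through the libraries of 4N-2, so that the filter set the direction of their calls, and nothing is read from the count. LINC01399, a non-coding gene, averaged 12.6 reads per M in 4N-2 against 0.21 in 2N-2, a log2 difference of 5.39 (adjusted p = 4.77e-11). RTCB and FBXO7, the next tested genes beyond SYN3, differed by -0.05 and 0.07 on the log2 scale in pair 2.

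**Figure D2:**
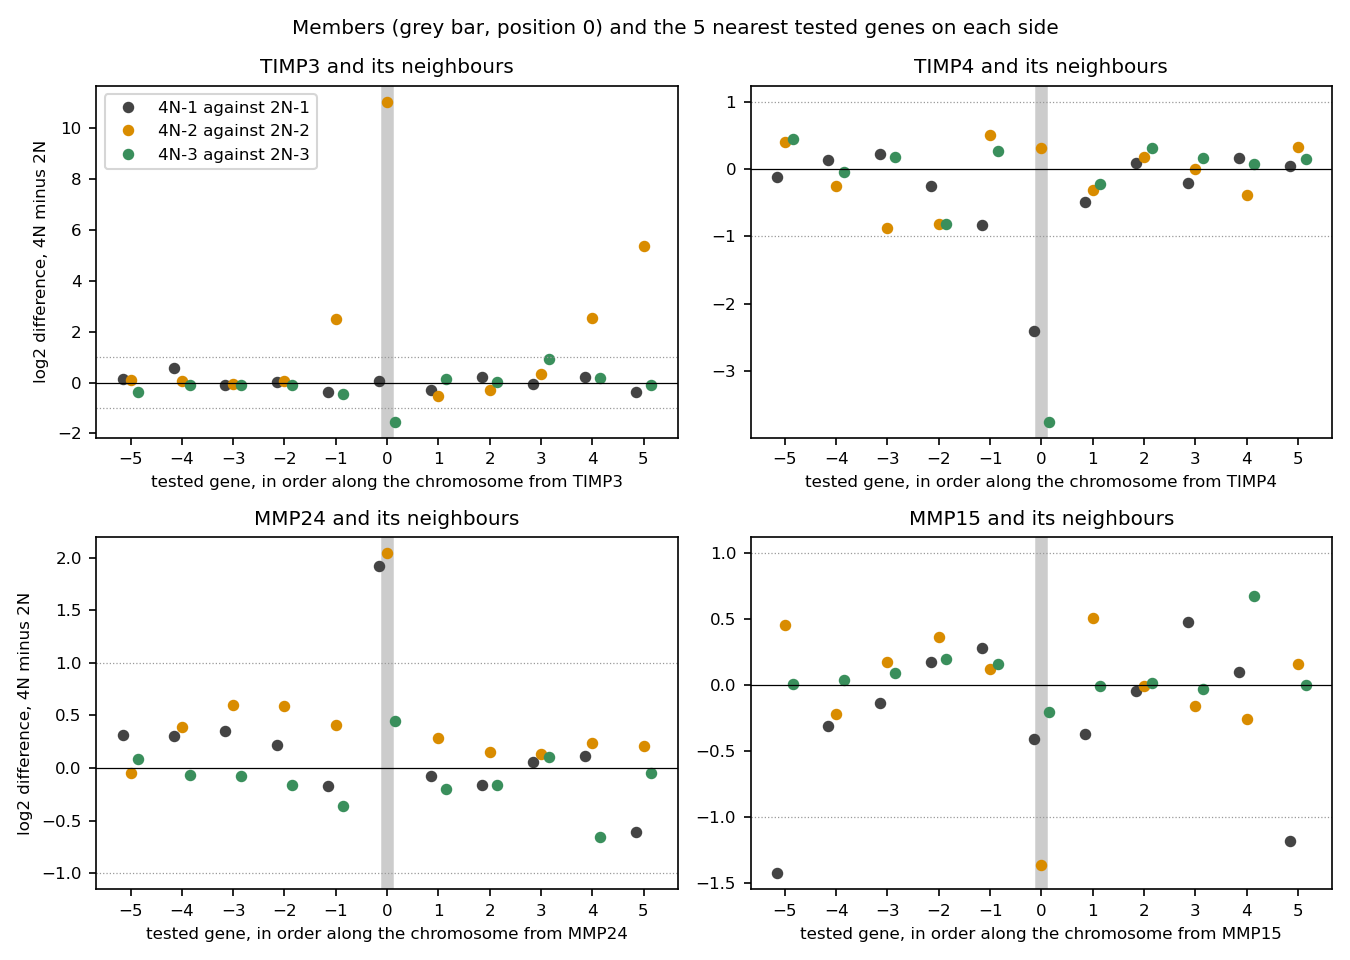
Log2 difference (4N minus 2N, log2(reads per M + 0.1)) of TIMP3, TIMP4, MMP24 and MMP15, at position 0 on the grey bar, and of the 5 nearest tested genes on each side, in order along the chromosome, for the 3 pairs (colours). TIMP4 (pairs 1 and 3) and MMP24 (pairs 1 and 2) differ by more than 1 while their neighbours stay within 1 of 0, and TIMP3 has 3 called neighbours in pair 2, of which SYN3 and ISX-AS1 passed the minimum level only through 4N-2, and MMP15 has 2 in pair 1 and none in pair 2.

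TIMP4 (chr3:12153051-12159351, minus strand) was lower in 4N-1 and 4N-3 than in their partners and at a like level in pair 2. Pair 3 had 0.0792, 0.0917 and 0.0705 reads per M in 4N-3, against 2.71, 2.32 and 2.00 in 2N-3. Pair 1 had 0.0237, 0.105 and 0.0669 reads per M in 4N-1, against 0.913, 0.747 and 0.623 in 2N-1. In both pairs all libraries of the tetraploid clone were below all libraries of the diploid clone. In summed reads these were 10 in 4N-3 against 285 in 2N-3, and 9 in 4N-1 against 94 in 2N-1. Scaled to depth, the diploid clone held 28.8 times the reads of 4N-3 (95% exact interval 15.4 to 60.7) and 11.5 times those of 4N-1 (5.81 to 25.9). The log2 differences were -3.75 and -2.40 (SE 0.19). Both were called under every pseudocount tried, but their size followed it, with -2.29 in pair 3 and -1.15 in pair 1 at 0.5 reads per M.

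Pair 2 went the other way for TIMP4, by a small amount. Its level was 3.12, 3.34 and 3.05 reads per M in 4N-2, against 2.60, 2.63 and 2.34 in 2N-2, with every library of 4N-2 above every library of 2N-2 and a log2 difference of 0.32 (SE 0.19). The low tetraploid clones were thus 4N-1 and 4N-3, and 4N-2 had the highest mean of all 6 clones. TIMP4 lies inside SYN2, a synapsin gene on the opposite strand, which held 11 reads in 4N-1 against 21 in 2N-1 and 10 reads in 4N-3 against 24 in 2N-3. None of the 10 nearest tested genes, PPARG among them, was called in any pair. Short of 2-fold, PPARG was lower in the tetraploid clone of pairs 1, 2 and 3 (log2 differences -0.49, -0.31 and -0.22). TAMM41 was lower too (-0.25, -0.82 and -0.82). MKRN2 and AC091492.1 were higher in all 3 pairs, and the other neighbours changed sign between pairs.

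TIMP1 (chrX:47582313-47586789, plus strand) and TIMP2 (chr17:78852977-78925387, minus strand) were abundant in every clone, and neither was called in any pair. TIMP2 averaged 895 ± 25.0 reads per M in 4N-1 against 645 ± 9.81 in 2N-1, and 910 ± 11.4 in 4N-2 against 739 ± 32.4 in 2N-2 (SD, n = 3 each). In both pairs the tetraploid libraries were above all diploid ones, with log2 differences of 0.47 and 0.30 (SE 0.08). In pair 3 the libraries overlapped, at 718 ± 43.5 in 4N-3 against 674 ± 64.8 in 2N-3.

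TIMP1 averaged 97.6 ± 1.16 reads per M in 4N-1 against 83.9 ± 5.44 in 2N-1, and 116 ± 4.09 in 4N-2 against 90.4 ± 7.31 in 2N-2 (SD, n = 3 each). The log2 differences were 0.22 and 0.36 (SE 0.18), again with no overlap between libraries. In pair 3, TIMP1 had 92.0, 86.5 and 103 reads per M in 4N-3, against 160, 79.8 and 76.7 in 2N-3. Library A of 2N-3, the one that stood apart on the second component, alone gave the high value, and the log2 difference of -0.08 ran from -0.27 to 0.26 as single libraries were left out. Libraries of the clones did not overlap for 7 of the 8 genes tested in pair 1, beside 50.7% of all genes. The same held for 8 of 8 genes in pair 2, beside 61.6%, and for 3 of 8 in pair 3, beside 18.5%.

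MMP2 (chr16:55389700-55506691, plus strand) was the most abundant protease, and its direction differed between pairs. It had 3554, 3536 and 3644 reads per M in 4N-1, against 2469, 2481 and 2585 in 2N-1. In pair 2 it had 1918, 1804 and 1570 reads per M in 4N-2, against 2928, 3052 and 2623 in 2N-2. The libraries did not overlap in either pair, higher in the tetraploid clone of pair 1 and lower in that of pair 2. The log2 differences were 0.51 and -0.70 (SE 0.11), short of 2-fold. In pair 3 MMP2 averaged 2442 ± 278 reads per M in 4N-3 against 2654 ± 84.7 in 2N-3, with overlapping libraries.

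MMP1 (chr11:102789920-102798160) and MMP3 (chr11:102835801-102843803), both on the minus strand in a cluster of MMP genes, were near the limit of detection. MMP1 had 64 reads over all 18 libraries, with 2 reads in 4N-1 against 10 in 2N-1, 21 in 4N-2 and 19 in 2N-2, and 8 reads in 4N-3 against 4 in 2N-3. The libraries overlapped in every pair. MMP3 had 2 reads in 4N-1, 1 in 4N-2 and 1 in 4N-3, against 0 in each diploid clone. A count of 0 allows up to 0.0245 reads per M in 2N-1 and 2N-3 and up to 0.02 in 2N-2 (3 reads over the 3 libraries), and no fold is given. In the same cluster MMP20 and MMP27 had no read in any library, and MMP7, MMP8, MMP10 and MMP13 had at most 45 reads each over all libraries.

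MMP14 (chr14:22836557-22849027, plus strand), the membrane-type protease that activates the MMP2 precursor, was higher in 4N-1 and 4N-3 and lower in 4N-2 than in their partners. It had 1564, 1549 and 1578 reads per M in 4N-1 against 978, 967 and 982 in 2N-1. In pair 2 it had 769, 727 and 708 reads per M in 4N-2 against 1114, 1227 and 1010 in 2N-2. Pair 3 had 1206, 1167 and 1312 reads per M in 4N-3 against 976, 1015 and 954 in 2N-3. The libraries of the clones did not overlap in any pair. The log2 differences were 0.68, -0.60 and 0.32 (SE 0.08), all short of 2-fold.

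MMP15 (chr16:58025566-58046901, plus strand), a further membrane-type protease, was called in pair 2. It had 3.09, 2.94 and 2.45 reads per M in 4N-2 against 7.19, 7.67 and 7.31 in 2N-2, a log2 difference of -1.36 (SE 0.11). All libraries of 4N-2 were below those of every other clone. Pair 1 had 7.54, 7.47 and 6.98 reads per M in 4N-1 against 9.98, 9.98 and 9.26 in 2N-1, a log2 difference of -0.40. Pair 3 overlapped, with 10.4 ± 0.91 in 4N-3 against 12.1 ± 1.42 in 2N-3. Of the 10 nearest tested genes, ADGRG1 and GINS3 were called lower in 4N-1 (log2 differences -1.43 and -1.19), and none was called in pairs 2 and 3.

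MMP24 (chr20:35226654-35277000, plus strand), a membrane-type protease best known from the nervous system, had few reads and was higher in the tetraploid clone of pairs 1 and 2. It had 2.35, 1.68 and 1.69 reads per M in 4N-1 against 0.525, 0.313 and 0.460 in 2N-1. Pair 2 had 1.75, 1.78 and 2.00 reads per M in 4N-2 against 0.403, 0.383 and 0.331 in 2N-2. In both pairs every tetraploid library was above every diploid one. The summed reads were 255 in 4N-1 against 53 in 2N-1, and 229 in 4N-2 against 56 in 2N-2, which scaled to depth gave ratios of 4.37 (95% exact interval 3.24 to 5.99) and 4.94 (3.68 to 6.74). The log2 differences were 1.92 and 2.04 (SE 0.20).

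In pair 3 MMP24 had 1.00, 0.596 and 0.822 reads per M in 4N-3 against 0.637, 0.586 and 0.456 in 2N-3, and the libraries overlapped (log2 difference 0.44). MMP24OS, a gene on the opposite strand whose span holds MMP24, was far more abundant, at 36.4 reads per M in 4N-2 against 24.3 in 2N-2 and 27.6 in 4N-1 against 23.6 in 2N-1. Without the strand, reads of MMP24 and MMP24OS cannot be told apart. None of the 10 nearest tested genes of MMP24 was called in any pair.

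**Figure D3:**
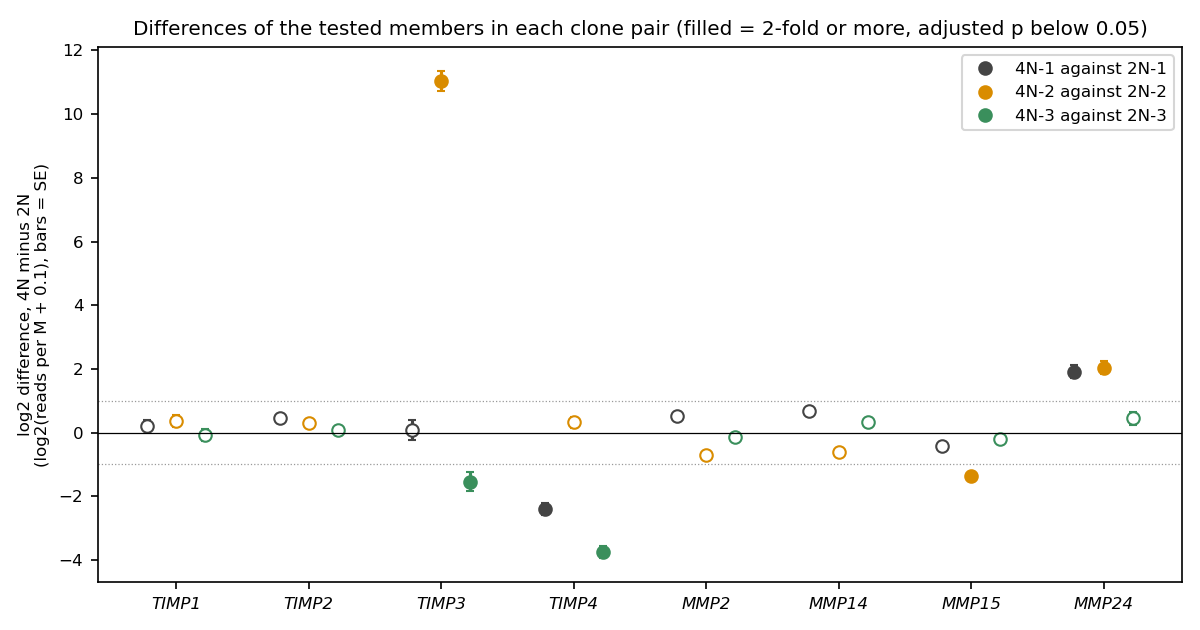
Log2 difference (4N minus 2N, log2(reads per M + 0.1)) of the 8 genes tested in each pair, with SE bars and filled points where the difference was called. TIMP3 reaches 11.04 in pair 2, TIMP4 is below -2 in pairs 1 and 3, and MMP24 is near 2 in pairs 1 and 2.

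Levels were compared per kilobase of exon, which sets different genes side by side if the reads come from exons. The annotation used for counting is not given in the sources used here. The span with introns is 23.7 times the exon length for MMP2, 12.9 times for TIMP2 and 2.79 times for MMP14. On the exon scale the clone means of MMP2, MMP14 and TIMP2 came in that order in every clone, with MMP14 and TIMP2 nearly level in 4N-2. TIMP3 reached the level of TIMP1 only in 4N-2. MMP2 was highest everywhere, with 358 ± 36.0 reads per M and kilobase in 4N-2 against 581 ± 44.8 in 2N-2. MMP14 stood at 165 ± 6.99 in 4N-2 against 250 ± 24.4 in 2N-2, and TIMP2 at 161 ± 2.02 in 4N-2 against 131 ± 5.75 in 2N-2. TIMP3 in 4N-2, at 77.0 ± 14 (SD, n = 3), was within the spread of TIMP1 in the same clone, at 75.0 ± 2.66. TIMP3 made up 24.3% ± 3.34 of the summed level of the 4 TIMPs in 4N-2 against 0.00788% ± 0.0035 in 2N-2.

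The ratio of MMP14 to TIMP2 on that scale was 1.02 ± 0.055 in 4N-2 against 1.90 ± 0.109 in 2N-2, and lay between 1.74 and 2.24 in the 15 libraries of the 5 clones other than 4N-2. In pair 1 it was 2.20 ± 0.041 in 4N-1 against 1.91 ± 0.022 in 2N-1, and in pair 3 it was 2.16 ± 0.005 in 4N-3 against 1.85 ± 0.158 in 2N-3. The ratio of MMP2 to TIMP2 was 2.22 ± 0.24 in 4N-2 against 4.42 ± 0.151 in 2N-2. The summed level of the 6 MMPs over that of the 4 TIMPs was 1.66 ± 0.06 in 4N-2 against 4.35 ± 0.128 in 2N-2, and lay between 3.58 and 4.91 in the 15 other libraries. These are ratios of transcripts, and no protein or activity was measured.

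**Figure D4:**
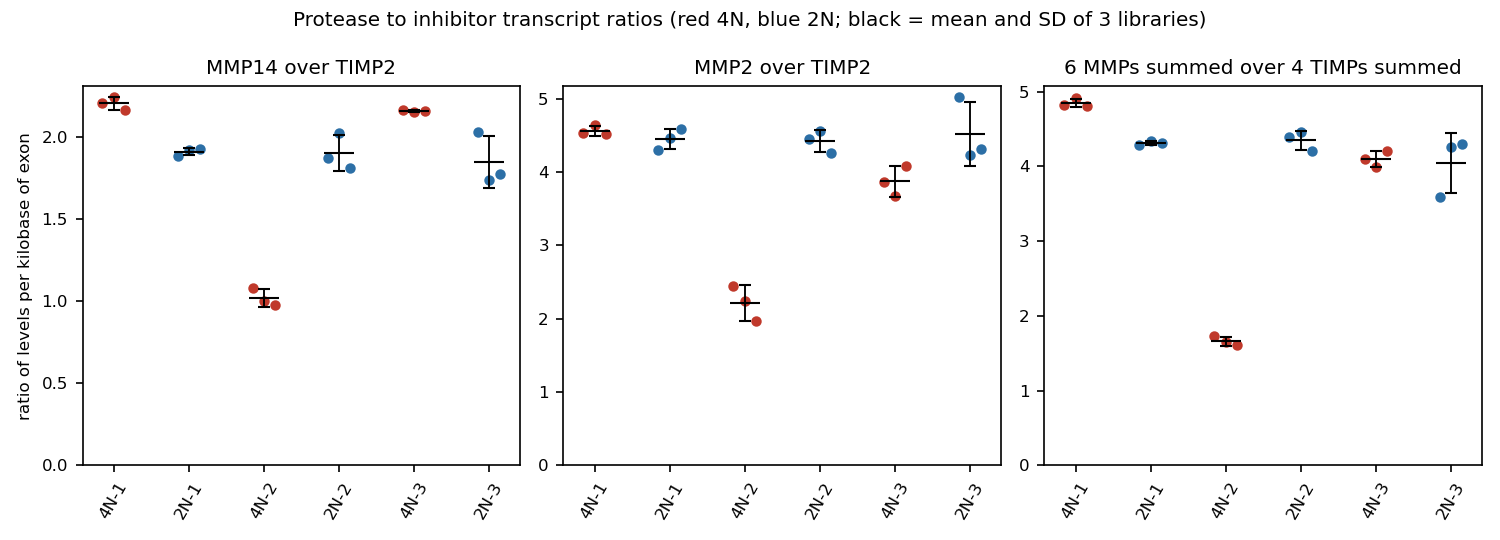
Ratios of levels per kilobase of exon in 18 libraries (points, 4N red and 2N blue, with mean and SD of 3 libraries in black) for MMP14 over TIMP2, MMP2 over TIMP2 and the 6 MMPs over the 4 TIMPs. The 3 libraries of 4N-2 lie below all others in each panel, at 1.02, 2.22 and 1.66 on average.

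Levels of markers of other cell types also differed within pairs. The summed level of 7 fibroblast markers was 925 reads per M in 4N-2 against 526 in 2N-2, of which THY1 made 827 in 4N-2 and 299 in 2N-2, while LUM stood at 0.0505 in 4N-2 and 43.8 in 2N-2. The summed level of 5 leukocyte markers was 137 in 4N-2 against 49.0 in 2N-2, nearly all of it from CD68, a lysosomal protein, and CD3E had no read in any library. In pair 1 the fibroblast sum was 652 in 4N-1 and 447 in 2N-1. COL1A1, PDGFRB, DCN and LUM (127 in 4N-1 and 25.1 in 2N-1) were higher in 4N-1. THY1 (230 in 4N-1 and 280 in 2N-1), PDGFRA and COL1A2 were lower there. The leukocyte sum of pair 1 was 27.7 in 4N-1 and 46.1 in 2N-1. In pair 3 the fibroblast sum was 599 in 4N-3 and 544 in 2N-3, and the leukocyte sum was 46.7 in 4N-3 and 49.9 in 2N-3. In pair 2, sums over endothelial markers were 3.08 in 4N-2 and 3.40 in 2N-2, over neuron markers 85.8 in 4N-2 and 149 in 2N-2, and over keratinocyte markers 0.0233 in 4N-2 and 0 in 2N-2. In bulk RNA, fewer cells of a type and less RNA per cell cannot be told apart. The part of any such shift in the TIMP, MMP and matrix gene values of each pair was not tested.

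Genes whose levels ran most like those of each gene with a wide span were sought among 17756 tested genes, by the Pearson correlation of log2 levels over 18 libraries. The libraries share clones, so the coefficients describe the pattern over 6 clones. TIMP3 ran most like GPC4 (0.988), a cell surface proteoglycan gene at 1.90 reads per M in 4N-2 against 0 in 2N-2. Next came AC107884.1 (0.988), at 5.03 in 4N-2 against 0.0464 in 2N-2, and GABRE (0.987), a GABA receptor subunit gene at 9.64 in 4N-2 against 0.0202 in 2N-2. These coefficients rest on 4N-2. TIMP4 ran most like SPINT2 (0.966), an inhibitor of serine proteases. SPINT2 averaged 2.92 reads per M in 4N-1 against 12.2 in 2N-1 and 3.19 in 4N-3 against 16.8 in 2N-3. In pair 2 SPINT2 was lower in the tetraploid clone, at 20.6 in 4N-2 against 30.7 in 2N-2, while TIMP4 was higher there. MMP24 ran most like GAS6 (0.958), the ligand of the TAM receptor kinases, at 545 in 4N-1 against 280 in 2N-1. MMP15 ran most like CXCL16 (0.968), a membrane-bound chemokine, at 0.626 in 4N-2 against 1.72 in 2N-2.

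Further genes of the pathway were taken from 6 lists, which held 73 tested genes, and their p-values are from limma with Benjamini-Hochberg adjustment over all 22821 tested genes. The lists were written with earlier results of these libraries known, so nothing is read from their counts and medians. Their p-values describe the spread between libraries of a clone. Over all genes, an adjusted p below 0.05 was reached by 10.1% as higher and 9.42% as lower in pair 1, by 20.4% and 21.6% in pair 2, and by 3.67% and 3.24% in pair 3. The median log2 difference of all genes was 0.02, -0.02 and 0.01. Of the other MMPs, 15 of 17 were matched and 6 tested. The test was passed by 4 higher and 1 lower in pair 1, by 1 higher and 2 lower in pair 2, and by 1 lower in pair 3, with list medians of 0.69, -0.48 and -0.16. MMP17, a membrane-type protease held by a lipid anchor, averaged 13.8 ± 1.19 reads per M in 4N-1 against 6.16 ± 0.65 in 2N-1 (adjusted p = 3.27e-05) and 3.27 ± 0.48 in 4N-2 against 8.57 ± 1.10 in 2N-2 (adjusted p = 1.09e-06; SD, n = 3 each). MMP19 rose in pairs 1 and 2, by 1.12 and 1.18 on the log2 scale, but by less than 2-fold on the RPKM scale (0.77 and 0.86). The 9 untested MMPs did not exceed 0.226 reads per M in any library.

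Of 15 tested matrix substrates, 7 were higher and 1 lower in pair 1 by the test, 1 was higher and 10 lower in pair 2, and 6 were higher and 1 lower in pair 3, with medians of 0.64, -0.68 and 0.44. FN1, the fibronectin gene, averaged 22744.5 reads per M in 4N-1 against 10819 in 2N-1 and 9294 in 4N-2 against 15617 in 2N-2. COL4A1, a chain of basement membrane collagen, differed by 0.92 in pair 1 and by -1.40 in pair 2 on the log2 scale (adjusted p = 0.000466 and 1.47e-06), the second of which was short of 2-fold on the RPKM scale (-0.90). COL1A1 rose in 4N-1 (153 ± 10.2 against 46.2 ± 1.5 in 2N-1, adjusted p = 1.05e-05). DCN and COL1A2 fell in 4N-2 (log2 differences -1.87 and -1.82), and both were below 1 read per M in 2N-2. With a pseudocount of 0.5 reads per M, COL1A2 was not called (-0.77). COL5A1 was scarce too, at 0.18 reads per M in 4N-2 against 0.0183 in 2N-2 and 0.0245 in 4N-3 against 0.328 in 2N-3, and with the same pseudocount it was not called in pair 3 (-0.66). It reached the minimum level only through the libraries of 2N-3, so that the filter set the direction of its call in pair 3. COL5A1 was also the 1 gene counted lower in pair 3.

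Among ADAM and ADAMTS proteases, of which TIMP3 can inhibit some, the tested members were 8 and 14. Of the ADAM genes, the test found 1 higher and 1 lower in pair 1, 1 higher and 4 lower in pair 2, and 2 higher in pair 3, with medians of 0.24, -0.38 and 0.24. ADAM8 averaged 30.1 ± 3.50 reads per M in 4N-2 against 7.89 ± 1.06 in 2N-2 (adjusted p = 2.16e-09). ADAM28 rose in 4N-3 and fell in 4N-2 (log2 differences 3.35 and -1.29), and the fall was no longer called without library C of 4N-2 (-0.90) or with a pseudocount of 0.5 reads per M (-0.51). Of the ADAMTS genes, it found 5 higher in pair 1, 5 higher and 7 lower in pair 2, and 4 higher and 1 lower in pair 3, with medians of 0.11, -0.26 and 0.38.

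ADAMTS10 had the widest fall among them, at 0.481 ± 0.107 reads per M in 4N-2 against 41.7 ± 6.21 in 2N-2 (adjusted p = 1.92e-13). It also fell in 4N-3 (log2 difference -1.13), a call that ended without library B of 4N-3 (-0.94) and on the RPKM scale (-0.72). ADAMTS16 held 618 reads in all in 4N-2, with 1 in 2N-2, and rose in all 3 pairs (log2 differences 0.72, 5.58 and 1.47). ADAMTS1, a protease of aggrecan and versican, averaged 92.8 ± 14.6 in 4N-2 against 19.1 ± 3.36 in 2N-2 (adjusted p = 1.28e-06).

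Of 15 tested inhibitors, activators and clearance genes, the test was passed by 3 higher and 2 lower in pair 1, by 5 higher and 4 lower in pair 2, and by 3 higher and 1 lower in pair 3, with medians of 0.08, 0.08 and 0.16. PLAT, which encodes tissue plasminogen activator, rose in all 3 pairs, at 315 ± 2.66 reads per M in 4N-1 against 118 ± 6.09 in 2N-1, 787 ± 83.0 in 4N-2 against 178 ± 31.7 in 2N-2, and 288 ± 38.7 in 4N-3 against 98.8 ± 7.23 in 2N-3. The adjusted p-values were 3.03e-07, 3.09e-10 and 1.38e-07. PLAU, the urokinase gene, rose by 1.14 in pair 1. THBS2 fell in pairs 1 and 2 (log2 differences -1.39 and -1.05), and the fall in pair 2 was no longer called without library C of 4N-2 (-0.71) or library A of 2N-2 (-0.69). With a pseudocount of 0.5 reads per M neither was called (-0.71 and -0.39).

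Of 15 AP-1 and ETS factors, which are known to drive several MMP promoters, it was passed by 2 higher and 5 lower in pair 1, by 6 higher and 5 lower in pair 2, and by 1 higher and 3 lower in pair 3, with medians of -0.09, 0.16 and 0.00055. FOS fell in pairs 2 and 3, with log2 differences of -3.84 and -4.15, at 1.09 ± 0.425 reads per M in 4N-2 against 16.9 ± 5.21 in 2N-2. FOSB rose in pair 1 and fell in pairs 2 and 3 (log2 differences 2.77, -3.03 and -2.17), though in pair 3 it was just short of 2-fold on the RPKM scale (-0.99). JUNB fell in pairs 2 and 3 (-1.41 and -1.37), and ATF3 rose in pairs 1 and 2 (2.44 and 1.95). All these differences had an adjusted p of at most 0.000275.

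**Figure D5:**
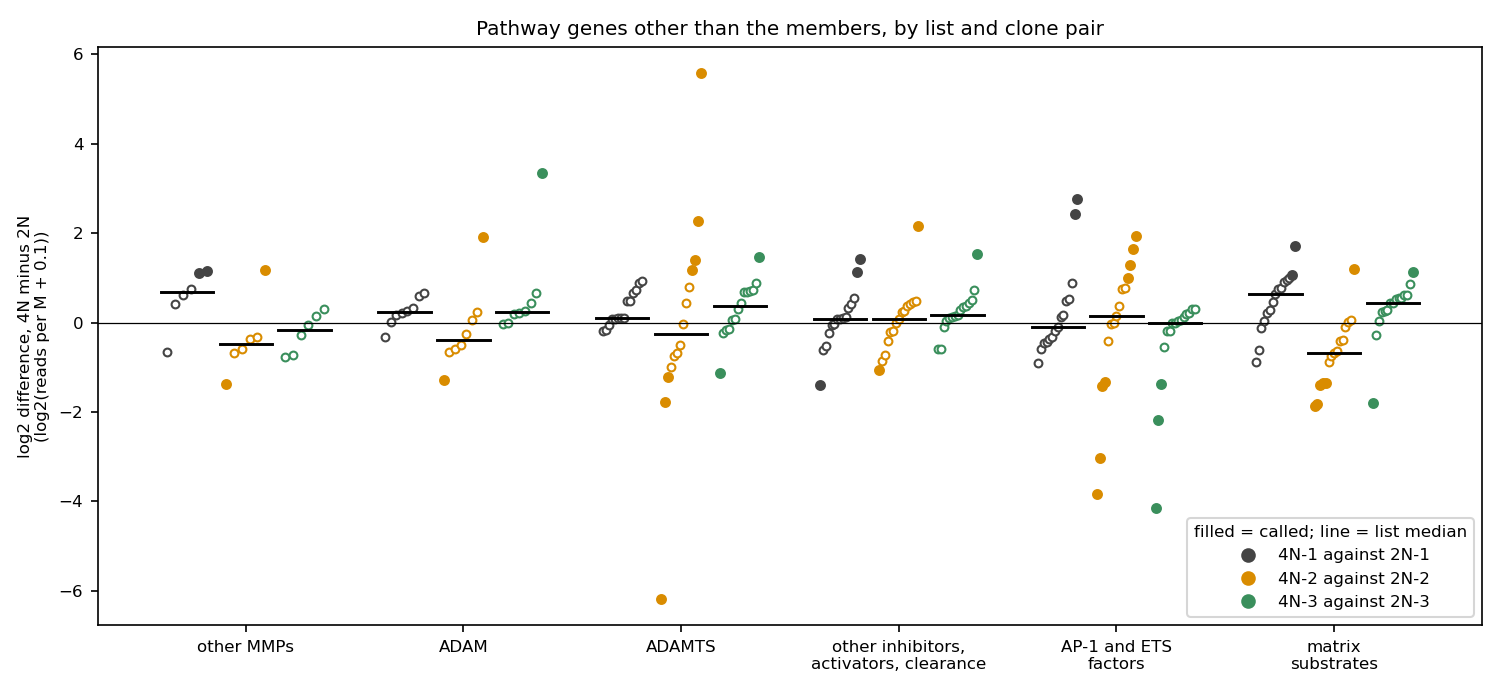
Log2 difference (4N minus 2N, log2(reads per M + 0.1)) of the 73 tested pathway genes by list and pair (colours), with filled points for called genes and black lines for list medians. The matrix substrates have medians of 0.64 and 0.44 in pairs 1 and 3 and -0.68 in pair 2. The lists were written with earlier results of these libraries known.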

How the data were processed

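RNA-seq was done on 18 libraries of RPE1 clones, 3 for each of 6 clones. Per the labels, a stranded kit for polyadenylated RNA was used. Per the submitters' processing notes, CASAVA 1.8.2, TopHat2 and edgeR were used with the hg19 build, without their roles. The authors deposited 1 table of RPKM values (reads per kilobase and M reads) for 57773 Ensembl genes. The annotation, the strand setting and the scaling of the libraries are not given in the sources used here.

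Among 17224 genes of more than 50 reads, 86.2% had a length implied by the RPKM values within 0.5% of the genomic span with introns, so genes with long introns have low RPKM. Whole reads were therefore recovered (99.997% of values above 0 were whole within 0.01 reads, and 1 gene that gave none was left out) and divided by the implied library divisors, 36.1 to 54.8 M. These reads per M were used as log2(value + 0.1), with a minimum of 0.25 in 3 libraries, and given to limma (version 3.58.1, R 4.3.3) with 1 mean per clone (trend in the spread, two-sided, Benjamini-Hochberg adjustment over 22821 genes). Intervals of read ratios are exact binomial at 95%, and they and the floor of 3 reads cover counting error only. The p-values measure the spread between libraries of a clone. The fit was also run on simulated data, with the same spread setting for every gene and changes only in the more abundant ones. It thus does not cover changes in genes near 0 reads. Replicate letters paired libraries weakly at most (correlation of same-letter deviations -0.14 to 0.22, above 0.1 in 3 of 9), and the main fit held no such pairing.

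Symbols, spans and positions come from GENCODE v29 (GRCh38), which matched 52338 genes, and promoters from RefSeq. The members and lists were chosen with earlier results of these data known. From each list and pair, up to 3 called genes with the largest difference and no overlap of libraries are named, and 1 gene is not reported here and stands in no list count. Alternatives tried were pseudocounts, minimums, limma-voom, the RPKM scale, median-of-ratios scaling, a replicate block and libraries left out.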

Additional observations from a re-analysis of the deposited data

Results flagged for a closer look

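Of the TIMPs and MMPs, 4 had all libraries of the tetraploid clone on one side of its partner in 1 pair and on the other side in another, and these differences between pairs were not tested because the genes were chosen for their patterns. The distance between the most positive and the most negative log2 difference was 12.6 for TIMP3 (higher in 4N-2, lower in 4N-3), 4.07 for TIMP4 (higher in 4N-2, lower in 4N-1 and 4N-3), 1.21 for MMP2 (higher in 4N-1, lower in 4N-2) and 1.28 for MMP14 (higher in 4N-1 and 4N-3, lower in 4N-2).

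Of the 20 pathway genes named from the lists, 19 had pair differences that differed from one another in limma's moderated F test, with Benjamini-Hochberg adjustment over all tested genes. Among proteases, the adjusted p was 1.93e-07 for MMP17, 0.00255 for MMP19, 8.46e-07 for ADAM8, 5.16e-06 for ADAM28, 4.74e-11 for ADAMTS10, 4.5e-10 for ADAMTS16 and 0.000316 for ADAMTS1. In the plasminogen system it was 0.00465 for PLAT and 5.52e-06 for PLAU, and PLAT was higher in the tetraploid clone in all 3 pairs. Among AP-1 genes it was 1.33e-09 for FOSB, 1.74e-07 for ATF3, 7.31e-06 for FOS and 0.000375 for JUNB. Among matrix genes it was 6.17e-06 for COL1A1, 0.000296 for FN1, 0.000216 for DCN, 5.45e-07 for COL1A2, 5.43e-07 for COL4A1 and 2.51e-05 for COL5A1. THBS2 was the gene that did not reach the threshold. These genes were named for being called in a pair, so that a difference between pairs is part of how they were chosen.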

How the results depend on the processing

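Over 27 settings, 639 alternative values of the TIMP and MMP differences were computed, and no called difference changed sign. Of them, 618 moved by less than the spread and 21 by more, and 2 calls were lost, both of TIMP3 in pair 3 (pseudocount of 0.5 reads per M and RPKM scale). TIMP4, MMP15 and MMP24 stayed below the minimum of 1 RPKM, so their calls were not tested on that scale. A gene below the minimum of a setting has no value there. Of 872 alternative values of the named pathway genes, 869 kept their side of the test, 3 did not (ADAM28 and THBS2 in pair 2, with libraries left out), and 15 missed the 2-fold limit or the test. These 15 were of MMP19, ADAM28, ADAMTS10, THBS2, FOSB, COL1A2, COL4A1 and COL5A1, with a pseudocount of 0.5 reads per M, on the RPKM scale or with a library left out. With a pseudocount of 0.5 reads per M, the genes called numbered 618, 1864 and 280 in pairs 1, 2 and 3, against 974, 2955 and 541, and on the RPKM scale, with far fewer genes tested, 141, 470 and 32. Leaving out 1 library at a time gave 875 to 1048, 2727 to 3059 and 464 to 740 calls in the pairs, and 0 to 2 across clones. With the replicate letter as a block the counts were 965, 2952 and 524. Same-letter deviations correlated above 0.1 in 3 of 9 comparisons, and 4 of 9 were highest with their own letter, so the block is given as an alternative. Depth limits MMP1, MMP3, TIMP3 outside 4N-2 and TIMP4 in 4N-1 and 4N-3, which rest on a few reads per library.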
